A study of Mus musculus with 6 samples.

Results

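Imprinted genes are expressed mainly from the maternal or the paternal copy, according to DNA methylation that was laid down in egg or sperm. Regulatory proteins such as Zfp57 and Trim28 protect these marks while most other methylation is erased in the preimplantation embryo, and many imprinted genes act on growth of the fetus and placenta. The marks lie at CG dinucleotides. Methylation at CHG and CHH, where H is any base but G, is scarce in most mammalian cells and is not the carrier of imprints. A set of 60 imprinted genes was looked up by gene symbol in a list of differentially methylated regions, and 17 of them were listed with a region, 43 were not. Together they carried 31 of the 9707 distinct regions of the list, counted once for each position and cytosine context.

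The list came from whole-genome bisulfite sequencing of 6 single embryos at embryonic day 4.5, each an embryo from a fertilised egg of C57BL/6 background into which sperm small RNA had been injected at 2 ng/µl. For 3 embryos its source was normal males (normal group), and for the other 3 males with stress-induced depression (depressed group). They were taken about 108 h after injection. No uninjected embryos are among the samples. The design asks whether the 2 sources of RNA leave different DNA methylation. For each region the authors' table gives the mean level of each group and 0 columns of values per embryo, so levels come without an SD or n, the read depth is unknown, and differences could not be set against the variation among embryos. The maternal and paternal copies are not separated in these means.

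Of the 31 regions, 27 were lower in the depressed group and 4 were higher. By context there were 1 CG, 12 CHG and 18 CHH regions. The CG region, the 12 CHG regions and 14 of the CHH regions were lower, and the 4 higher regions were all CHH. Leaving out Begain and the CG region, the other 25 lower regions stood at 3.13% or less in the depressed group, 21 of them under 1%, against 5.99 to 81.3% in the normal group. From here on a pair of levels gives the depressed group first and the normal group second. The picture of group levels shows this as a row of filled points near 0 with open points spread to the right.

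**Figure D1:**
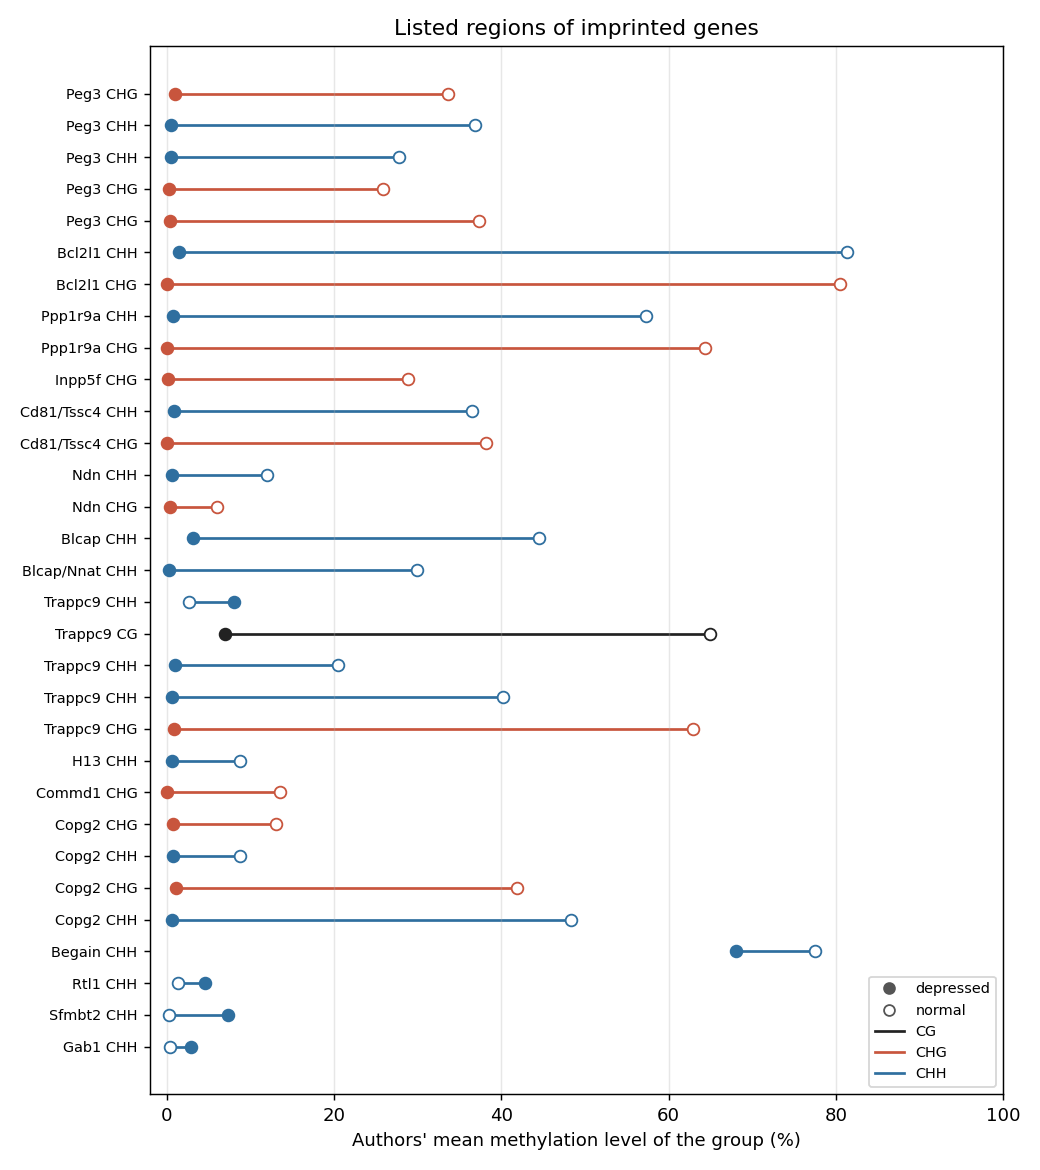
Authors' mean methylation level (x axis, %) of the depressed group (filled) and the normal group (open) in each of the 31 regions of imprinted genes (y axis, gene and context, coloured by context). In 27 regions the open point lies to the right, and in 4 CHH regions, of Trappc9, Rtl1, Sfmbt2 and Gab1, the filled point does.

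The levels of the members' regions were set beside those of the whole list. Lower CHG regions of the members had medians of 0.341% (depressed) against 35.5% (normal), against 0.174% and 30.9% over all 1715 lower CHG regions. Lower CHH regions had medians of 0.702% and 36.6%, against 0.637% and 24.9% over all 1415. The 4 higher CHH regions had medians of 5.97% (depressed) against 0.883% (normal), against 4.76% and 0.769% over all 5528. The CG and CHG regions had the direction of the list, in which 98.5% of CG and 91.03% of CHG regions were lower. In CHH, 14 of the members' 18 regions were lower against 20.4% of all 6943, and direction over the list went with position. With an exon or UTR entry of any gene, 10 of the members' 11 CHH regions were lower, near the 88.4% of all 1056 such regions. Without one, 4 of 7 were lower, against 8.19% of 5887. These sets are unlike, since the members' 7 all lay in an intron of a member while the 5887 also include regions outside genes. A share for introns alone was not computed.

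**Figure D2:**
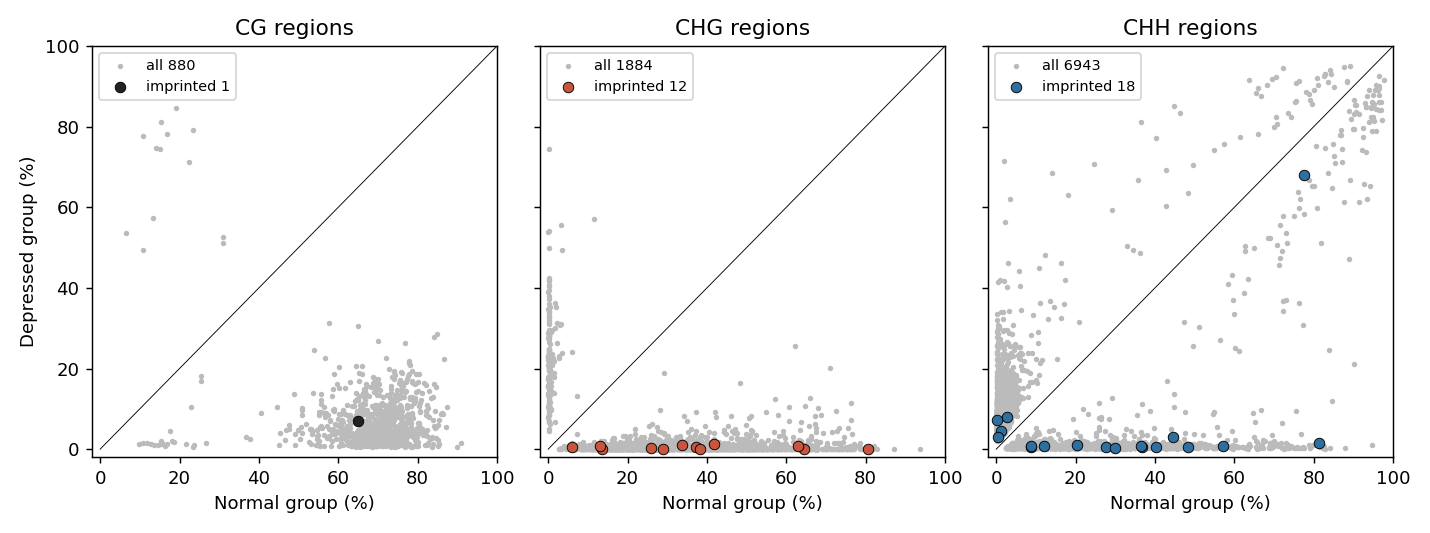
Depressed group level (y axis, %) against normal group level (x axis, %) for every region of the list (grey) and the regions of imprinted genes (coloured), 1 panel per context; the diagonal marks equal levels. The CHG points of imprinted genes lie along the bottom edge with most of the grey points, and the CHH point at upper right is Begain.

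The share of genes with a region was set beside that of all genes. Of the 60 members, 54 are protein-coding in RefSeq and 6 are long non-coding RNAs. All 17 with a region were protein-coding, 31.5% of 54, against 17.5% of 21900 protein-coding genes. A lower CHG region was listed for 10 members (18.5%), against 6.24% of protein-coding genes, and a lower CHH region for 12 (22.2%), against 5.28%. Some neighbours are counted through the same region. Cd81 and Tssc4 share their CHG and their CHH region, and Blcap and Nnat share a CHH region. A higher CHH region was listed for 4 members (7.41%), close to the 8.85% of protein-coding genes, and a lower CG region for 1, against 2.51%. Higher CG and higher CHG regions were listed for 0 members, against 0.0411% and 0.735% of genes, shares at which 0 of 54 says little. Genes with a region were longer, with a median span of 57.4 kb against 13.9 kb for protein-coding genes without one, and the protein-coding members were longer than most genes, with a median span of 40.2 kb against 17.1 kb. In the middle range of the members' lengths (10.2 to 86.8 kb), 8 of 26 members had a region, against 17.1% of 10951 protein-coding genes of that range. A lower CHG region was listed for 5 of these 26, against 6.46%, and a lower CHH region for 5, against 5.12%. These shares describe the list; the genes were chosen with earlier results of these data known, and no test is given.

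**Figure D3:**
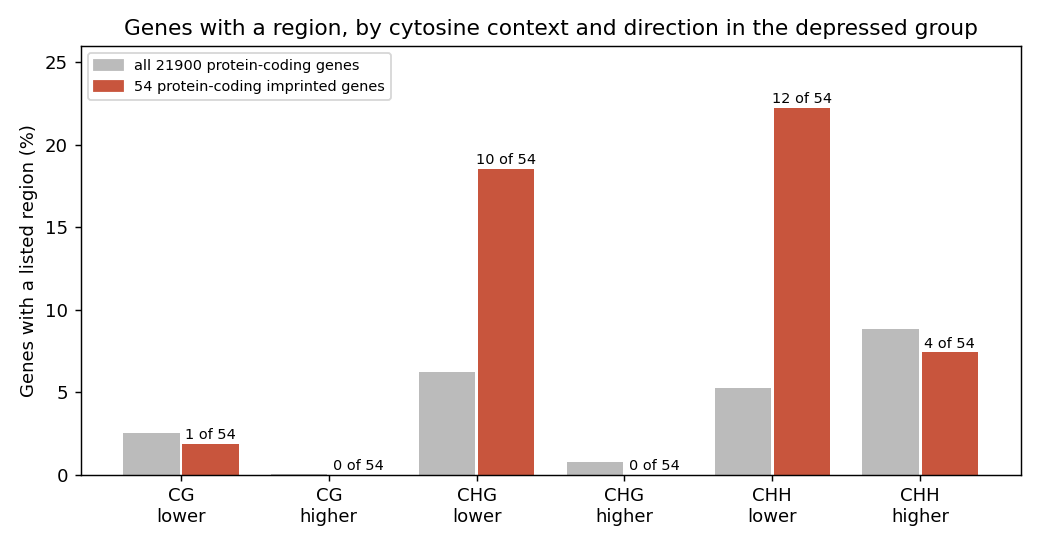
Share of genes with a listed region (y axis, %) by context and direction in the depressed group, for all protein-coding genes (grey) and the protein-coding imprinted genes (red, with their count). The red bars exceed the grey ones for lower CHG and lower CHH regions, and are below them or at 0 elsewhere.

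The location of lower CHG and lower CHH regions was near that of the list. An exon or UTR entry of any gene was found for 9 of the members' 12 lower CHG regions, against 83.1% of all lower CHG regions, and for 10 of 14 lower CHH regions, against 65.9%. Among the 4 higher CHH regions it was found for 1, that of Rtl1, against 2.23% of all higher CHH regions. Counting members' own entries, 17 of the 31 regions lay in an exon or UTR, 12 of them in a 3′ UTR and 1 in a 5′ UTR, while 14 were intronic for each member listed. Promoter entries of a member were found for 2 regions, both of Tssc4. RefSeq promoter windows, from 250 bases before to 50 after a gene start, were at hand for 49 members. Of their 81 windows, 0 overlapped a region of any context, in a list where 0.192% of all 32851 windows did. A CpG island or its shore was listed for 9 regions and a repeat for 4. Shares over the whole list were not computed for the UTR, promoter entry, island and repeat counts, which are descriptions only. On chromosomes 9 or 10, which hold most CG regions of the list, lay 0 of the members' regions. This says little, since Rasgrf1 (chromosome 9) and Plagl1 (chromosome 10) are the only members located there.

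The starts of Ndn, Zrsr1 and Mcts2 are shown here as the 250 bases before the start, 5′ to 3′ on the gene's own strand, with CG dinucleotides in capitals. The start of Tssc4, which lies 718 bp from a listed region, is nearer to one than those of Zrsr1 and Mcts2 but is not shown. Ndn (mm10, chr7:62348027-62348276, plus strand) is the member whose start lies closest to a listed region. Zrsr1 (chr11:22971755-22972004, plus strand) is an imprinted retrogene inside an intron of Commd1, and Mcts2 (chr2:152686898-152687147, plus strand) is one inside H13. The sequences are RefSeq's for GRCm38.p6.
Ndn: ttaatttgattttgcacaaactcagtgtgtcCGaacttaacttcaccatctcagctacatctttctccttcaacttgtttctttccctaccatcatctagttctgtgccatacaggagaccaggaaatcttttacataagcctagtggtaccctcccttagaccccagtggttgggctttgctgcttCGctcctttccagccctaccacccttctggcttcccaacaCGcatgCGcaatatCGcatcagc
Zrsr1: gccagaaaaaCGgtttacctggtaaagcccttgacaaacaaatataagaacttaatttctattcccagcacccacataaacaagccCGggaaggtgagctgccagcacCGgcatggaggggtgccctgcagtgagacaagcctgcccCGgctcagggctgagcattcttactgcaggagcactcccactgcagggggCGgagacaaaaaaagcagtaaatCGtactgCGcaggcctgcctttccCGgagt
Mcts2: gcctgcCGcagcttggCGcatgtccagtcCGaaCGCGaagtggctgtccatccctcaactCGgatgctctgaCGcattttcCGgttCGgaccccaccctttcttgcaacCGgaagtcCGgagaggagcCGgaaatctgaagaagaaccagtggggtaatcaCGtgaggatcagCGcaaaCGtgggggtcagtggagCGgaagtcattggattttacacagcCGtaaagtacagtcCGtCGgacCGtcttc

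These 250 bases hold 5 CG dinucleotides before Ndn, 8 before Zrsr1 and 20 before Mcts2, against a median of 6 over all windows and 13 over the members' windows. No region covers them. The nearest one begins 76 bp after the start of Ndn, ends 892 bp before that of Zrsr1 and 1845 bp before that of Mcts2.

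Peg3, a paternally expressed zinc finger gene that affects growth and maternal behaviour, carried 5 regions, all lower in the depressed group and all in the part of the gene farthest from its start. The longest CHH region (chromosome 7, 6707744 to 6711320; exon and 3′ UTR, 235 cytosines) was at 0.482% (depressed) against 27.8% (normal). Its statistic ranked 9 among the 1415 lower CHH regions, the top rank of any member region within its context. The second CHH region (6705318 to 6706813, exon and 3′ UTR) was at 0.520% against 36.8%. Both overlapped CHG regions. The CHG region at 6708377 to 6711335 was at 0.418% (depressed) against 37.3% (normal) and ranked 15 among 1715. The other CHG regions were at 0.977% against 33.6% (6705310 to 6705829) and 0.263% against 25.9% (6707880 to 6708183, exon only). The 5 regions covered 5096 bases, and lay between 19.1 and 25.2 kb along a span of 26.6 kb. The promoter of Peg3, which holds its imprint, thus had no listed region in any context. Over the list, 0.192% of all 32851 RefSeq promoter windows overlapped a region. Such an absence leaves the methylation of the promoter in the 2 groups unknown. Zim1 and Usp29, its neighbours in the domain, were not listed.

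**Figure D4:**
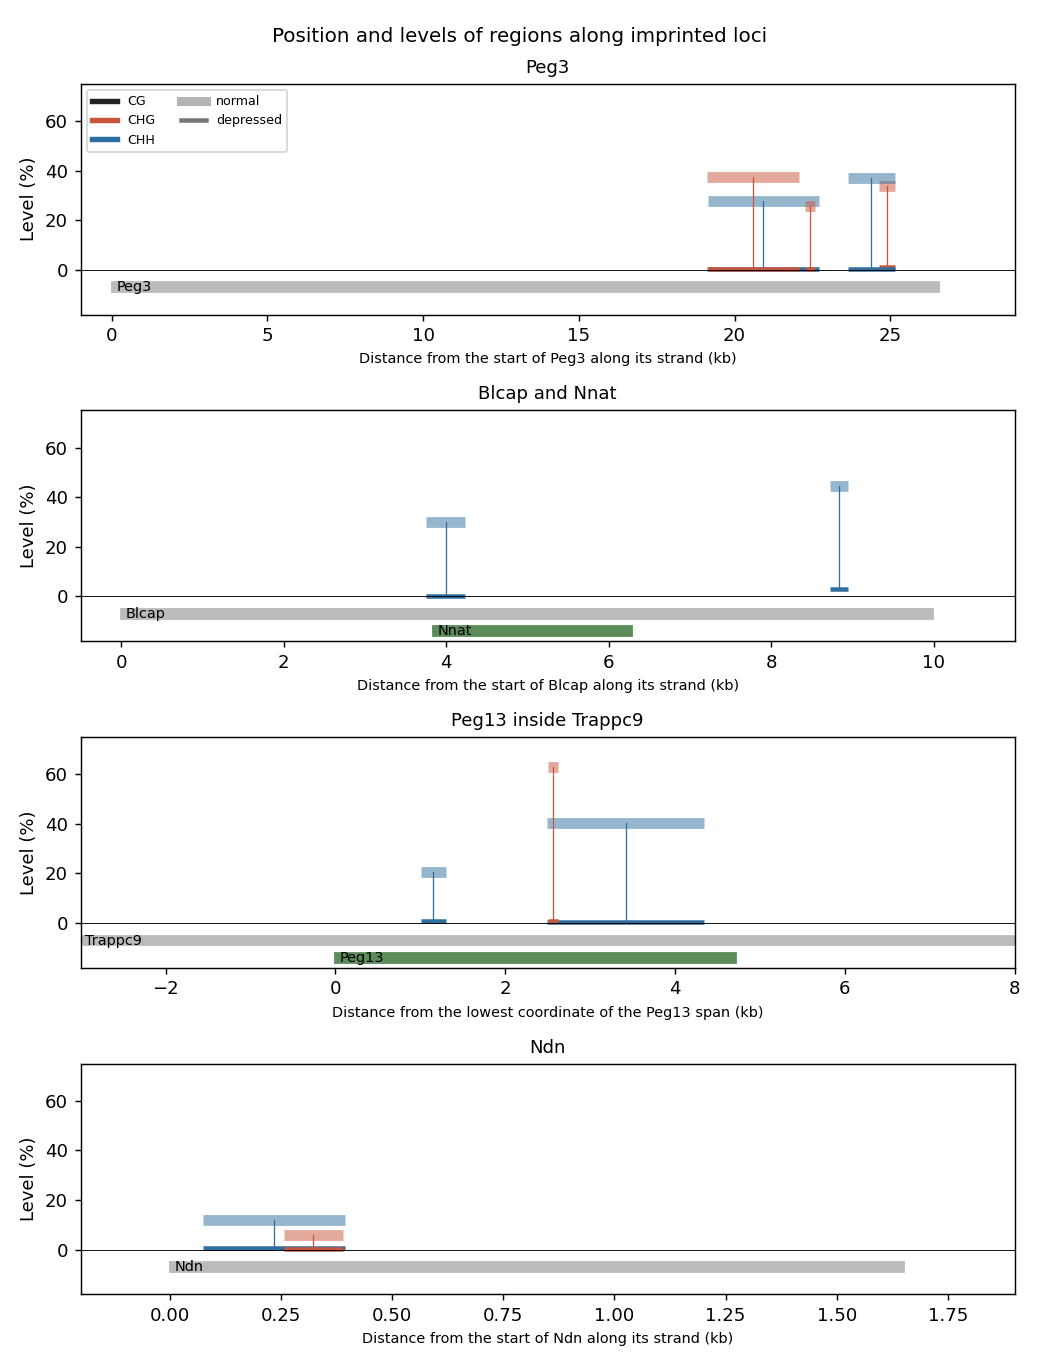
Position (x axis, kb along the gene or from the lowest coordinate of Peg13) and level (y axis, %) of the regions at Peg3, Blcap with Nnat, Peg13 inside Trappc9, and Ndn; thick pale bars are the normal and thin bars the depressed group, coloured by context, and the boxes below 0 are RefSeq gene spans. Peg3 regions lie toward the far end of the gene, between 19.1 and 25.2 kb, while those of Ndn lie near its start.

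Ndn encodes necdin, a paternally expressed protein of the MAGE family that promotes neuronal differentiation, and belongs to the domain lost in Prader-Willi syndrome. It was the only 1 of 8 members of that domain with a region. A CHH region in its exon and 5′ UTR, inside a CpG island (chromosome 7, 62348353 to 62348672, 67 cytosines), was at 0.686% (depressed) against 11.9% (normal). The CHG region within it (62348535 to 62348666) was at 0.420% against 5.99%, the lowest normal level among the members' lower regions. Snrpn, Snurf, Ube3a, Magel2, Mkrn3, Peg12 and Atp10a were not listed.

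Imprinted transcripts that sit inside a host gene formed a second group, and each of their listed regions was lower in the depressed group except 1 of Trappc9. Nnat, which encodes the membrane protein neuronatin and is paternally expressed, lies within Blcap. A CHH region (chromosome 2, 157562127 to 157562607, 126 cytosines) in the last exon, 3′ UTR and end of Nnat and in an intron of Blcap was at 0.239% (depressed) against 29.9% (normal). Blcap carried a second lower CHH region in its own exon and 3′ UTR (157557417 to 157557634), at 3.13% against 44.5%. H13, a signal peptide peptidase gene, had a CHH region in an intron (chromosome 2, 152685041 to 152685303), also listed at the promoter of Mcts2, with 0.615% (depressed) against 8.82% (normal). Commd1, a gene of copper handling and NF-kappa-B control, had a CHG region in an intron (chromosome 11, 22971021 to 22971113), on the shore of a CpG island and in a retroviral ORR1A2 repeat, with 0.0682% against 13.5%. Inpp5f, a phosphoinositide phosphatase gene whose imprinted transcript starts within it, had a CHG region in an exon near its far end (chromosome 7, 128694726 to 128694778, 6 cytosines), with 0.115% against 28.9%. Nap1l5 and its host Herc3 were not listed.

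Trappc9, a vesicle trafficking gene that contains the paternally expressed non-coding RNA Peg13, had the widest mix, with regions of all contexts and both directions. Its CG region (chromosome 15, 72670701 to 72670850; intron, 6 CpGs) was the only CG region of the 60 genes, at 7.002% (depressed) against 64.9% (normal). A higher CHH region in another intron (72630403 to 72630548) was at 8.09% (depressed) against 2.62% (normal). The other 3 regions are listed for an intron of Trappc9 and for an exon of a gene without a name in the table, and lie inside the RefSeq span of Peg13 (72805602 to 72810324). There a CHH region (72808097 to 72809943) that reaches into a CpG island was at 0.586% against 40.2%. The CHG region inside it (72808104 to 72808218, 8 cytosines) was at 0.892% against 63.0%, and a second CHH region (72806607 to 72806904) at 1.05% against 20.4%. Peg13 thus counts among the 43 members without a region because the list gives no symbol for it.

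Symbols were missing for most non-coding genes. Of 12731 RefSeq long non-coding genes, 17 are named in the list, so H19, Airn, Meg3, Rian, Mirg and Peg13 could hardly be found by symbol. By position, 6 regions overlapped the RefSeq span of a member without being listed with it, 3 in Peg13, 2 in Airn and 1 in Impact. Airn, the paternally expressed RNA that silences Igf2r, overlapped a CHH region (chromosome 17, 12853018 to 12853256; 0.299% against 14.9%) and a CHG region (12853145 to 12853229; 0.704% against 19.3%). Both are listed for Mas1 and for an intron of a gene without a name in the list. Impact, a paternally expressed regulator of translation, overlapped a CHG region of 51 bp (chromosome 18, 12960101 to 12960151; 0.0882% against 33.3%) listed at the promoter of an unnamed gene. H19, Meg3, Rian and Mirg overlapped no region.

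The 3′ UTRs of Bcl2l1, Ppp1r9a and Cd81 each held a CHG and a CHH region, all lower in the depressed group. Bcl2l1, the survival gene that encodes Bcl-xL and is reported as allele-biased in some tissues only, had the highest normal levels of the members' regions, with a CHG level of 0.0776% against 80.5% (chromosome 2, 152781700 to 152781816) and a CHH level of 1.47% against 81.3% (152781679 to 152781819). Ppp1r9a, which encodes the actin-binding protein neurabin, had a CHG level of 0.0650% against 64.4% (chromosome 6, 5160379 to 5160884, 7 cytosines). Its CHH level was 0.719% against 57.3% (5160262 to 5160858). It was the only 1 of 5 members of its domain listed, while Peg10, Sgce, Asb4 and Calcr were not. Cd81, a tetraspanin gene, had a CHG level of 0.0759% against 38.2% (chromosome 7, 143067464 to 143067569, 4 cytosines) and a CHH level of 0.828% against 36.5% (143067418 to 143067698). The same regions are listed at the promoter of its neighbour Tssc4, whose RefSeq span begins 718 bp farther on. The other members of this growth-limiting domain, Cdkn1c, Phlda2, Ascl2, Nap1l4 and Osbpl5, were not listed.

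Copg2, a coat protein gene next to Mest, carried 4 lower regions in introns, a CHG and a CHH region at each of 2 places. At the first (chromosome 6, 30804965 to 30805298 over both) the CHG level was 0.800% (depressed) against 13.1% (normal) and the CHH level 0.736% against 8.71%. At the second (30808518 to 30808677) they were 1.17% against 41.9% and 0.581% against 48.4%. Mest itself, the paternally expressed hydrolase gene of the domain, and Klf14 were not listed.

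Where contexts overlapped, their normal levels ranged from nearly equal to well apart. Of the members' 12 CHG regions, 10 overlapped a CHH region (44.9% did over all 1884 CHG regions), and in the 10 pairs both contexts were lower. The gap between CHG and CHH level in the normal group had a median of 5.17 percentage points, from 0.800 at Bcl2l1 to 22.8 at Peg13, against a median of 3.97 over all 847 such pairs. The 2 contexts of a pair share reads and position. No CG region overlapped any of the members' CHG or CHH regions, so the list does not show how CG sites at those places stood.

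The Dlk1-Meg3 domain of chromosome 12, in which paternally expressed protein genes alternate with maternally expressed non-coding RNAs and microRNAs, held 2 regions, of Begain and Rtl1. Begain, a synaptic scaffold gene, had an intronic CHH region (109062797 to 109062986, 102 cytosines) at 68.0% (depressed) against 77.5% (normal), high in both. Only 84 of 1415 lower CHH regions (5.94%) were over 50% in both groups, and no other member's CHH region was. Rtl1, a retrotransposon-derived gene needed in the placenta, had a higher CHH region in its exon (109591110 to 109591302), at 4.63% (depressed) against 1.31% (normal), near the medians of all higher CHH regions. The same region is also listed at promoters of genes without a name in the list. Dlk1, Meg3, Rian, Mirg and Dio3 were not listed.

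The Rtl1 region lies between the hairpins of Mir431, which ends 572 bases before it, and Mir433, which starts 412 bases after it. Both microRNAs are transcribed antisense to Rtl1 and can pair with its RNA, so their mature sequences are given, from RefSeq for GRCm38.p6, with the seed (bases 2 to 8) in capitals.
mmu-miR-431-5p: uGUCUUGCaggccgucaugca
mmu-miR-431-3p: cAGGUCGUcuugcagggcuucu
mmu-miR-433-5p: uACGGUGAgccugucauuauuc
mmu-miR-433-3p: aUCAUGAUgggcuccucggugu

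These microRNAs have 4 distinct seeds. Of 57 microRNA hairpins between the start of Meg3 and the end of Mirg, 0 overlapped a listed region, and the Rtl1 region was the only 1 in that interval.

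A group of 4 members was set apart by hand as genes whose imprint depends on histone methylation or is seen mainly in the placenta. Members of other domains were not sorted by these traits. In this group 2 members were listed, both with higher CHH regions in introns, a class listed for 8.85% of all protein-coding genes. Sfmbt2, a Polycomb-related gene with a large intronic microRNA cluster, was at 7.31% (depressed) against 0.234% (normal) (chromosome 2, 10519664 to 10519779). Gab1, an adaptor of growth factor receptors, was at 2.90% against 0.454% in a retroviral RLTR51A_Mm repeat (chromosome 8, 80857416 to 80857753). Jade1 and Smoc1 were not listed.

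Several of the best-known imprinted genes were without a region. H19 and the fetal growth factor gene Igf2, Igf2r, Grb10 and Ddc, Gnas, Plagl1, Rasgrf1, Zdbf2, Htr2a and Zrsr1 complete the members not listed. A gene that is not listed may have had no region past the authors' thresholds, which no source used here states, or too little coverage. It may also overlap a region that is listed without its symbol, as Peg13, Airn and Impact do. Outside such regions, the methylation of a gene not listed is not known in the 2 groups from this list.

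Of 40 other imprinted genes, 13 were listed with a region, against 17.5% of protein-coding genes. The 40 were not limited to protein-coding genes, and 38 of them were found in RefSeq, so the 2 shares are not of like sets. Higher CHH regions were 16 of their 25 distinct regions, near the 56.9% of the list, and 7 of the 16 were of Pde4d. Pde4d, a cAMP phosphodiesterase gene, carried 9 regions. Its CG region in an intron and promoter (chromosome 13, 109631925 to 109632031) was at 3.79% (depressed) against 65.5% (normal), and its 7 higher CHH regions were at 4.04 to 11.04% (depressed) against 0.339 to 2.25% (normal). Its 1 lower CHH region was high in both groups, at 83.5% against 90.5%. Ago2, the slicing Argonaute, had the other CG region (13.7% against 55.7%). Lower CHG regions were listed for genes such as Qpct, a glutaminyl cyclase gene (1.55% against 19.5%), and Mas1, with the region in Airn given above. Among genes with CHH regions only, Pon3 (13.3% against 2.62%), Galnt6 with 2 regions (10.9% against 2.14% and 11.8% against 2.72%) and the organic cation transporter gene Slc22a2 (4.13% against 0.341%) were higher. So were Slc22a18 (5.52% against 0.614%), the chloride channel gene Ano1 (3.64% against 0.812%) and the phosphodiesterase gene Pde10a with 2 regions (3.33% against 0.590% and 3.76% against 0.881%). Mcts2 was listed with the region of H13.

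Of 26 genes that set or protect imprints, 7 were listed, against the same 17.5%; gene length was not taken into account for either list. Dnmt3l, the cofactor of de novo methylation needed for imprints in germ cells, had a higher CHG region in an exon (chromosome 10, 78051991 to 78052056), at 8.51% (depressed) against 0.119% (normal). Dnmt3a, the methyltransferase it acts with, had a lower CHG region in an intron, at 0.0921% against 9.10%. Smchd1, a chromosomal silencer, had 2 lower CHH regions in introns (1.41% against 69.0% and 0.483% against 13.8%), and Tet3, the demethylase of the zygote, had 1 over its 3′ UTR (1.34% against 22.1%). Tet2 (4.88% against 0.739%), Ezh2 (6.54% against 0.298%) and Hells (6.07% against 0.832%) had higher CHH regions. Zfp57, Zfp445, Trim28, Dnmt1, Uhrf1 and Dppa3, which protect imprints in the early embryo, were not listed.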

How the data were processed

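Libraries of 6 single embryos were made by bisulfite conversion and random priming, per the labels' protocols. The submitters' processing notes name Trim Galore 0.3.3, Bismark, SAMtools and build mm10. Not given in the sources used here are the region caller, its thresholds and coverage filter, and how embryos were combined. Per the file headers, the deposited table gives each region's mean methylation fraction per group, which was multiplied to percent here. It also gives the authors' difference of the means (not used) and a region statistic, a score of the authors' caller that was used only to rank regions within a context and direction. All levels and the statistic come from the authors' deposited table.

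Entries whose gene name equals a member's symbol were collapsed by chromosome, start, end and context with pandas 2.3.3, and the counting was tested on simulated data. Exon, intron and promoter entries are the authors'. Gene spans and sequences are RefSeq's for GRCm38.p6, the assembly of mm10, and all 60 symbols matched. Gene length is the RefSeq span. The members and lists were chosen with earlier results of these data known. All members with a region are named. Of the other lists, genes with a CG or CHG region are named, except for a result that is not reported here, and of those with CHH regions only up to 6 by statistic are named. The files hold 1 mean per group, so no test, interval or leave-one-out was made. Alternatives changed the size, statistic, position and gene link of regions.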

Additional observations from a re-analysis of the deposited data

How the results depend on the processing

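Counts of members and regions were repeated under 10 alternatives, and 73 of 90 values were within 1.5 times the reported count. Among these are the counts of higher CG and higher CHG regions, reported as 0. They could not change where an alternative only removes regions. Requiring a difference of at least 20 percentage points left 9 members with a CHH region, 9 lower and 0 higher CHH regions. Requiring at least 10 cytosines left 0 members and 0 lower regions for CG, and 4 members and 6 lower regions for CHG. Above the median statistic of the context there were 5 members and 7 lower regions for CHG, and 9 members, 9 lower and 2 higher regions for CHH. With a promoter, exon or UTR entry of the member required, 0 members and 0 lower regions were left for CG, and 9 members, 8 lower and 1 higher region for CHH. In each case fewer regions could qualify by construction. Each of the other alternatives, among them RefSeq overlap and synonyms, stayed within 1.5 times. So did counting by RefSeq span whatever the listed name, which was chosen after seeing the data. Leaving out chromosomes 9 and 10 could not change any count, since 0 of the members' regions lie there. No paired analysis was possible because the table holds 1 mean per group, and for the same reason no embryo could be left out. The depth is unknown, and 7 of the 31 regions rest on fewer than 10 cytosines.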

Other observations

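Regions around the members were looked at as well. Within 50 kb of a member's RefSeq span, and not listed with a member or inside a member's span, lay 12 regions, all CHH. Of these 11 were higher in the depressed group, with a median of 3.49% (depressed) against 0.543% (normal), and 9 of the 12 had a repeat entry. One of them (chromosome 7, 143489097 to 143489258), in an intron of the imprinted transporter gene Slc22a18, lies between Cdkn1c and Phlda2, at 5.52% against 0.614%. The 1 lower region lay beside Jade1 (0.912% against 19.6%). Over the list, 88.4% of CHH regions with an exon or UTR entry and 8.19% of those without one were lower. A contrast between exons and other places is thus also one of the whole list. Regions without such an entry lie in introns as well as outside genes. The difference between the members and their surroundings was not tested, since regions are not replicates of the embryos.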
